A study of Homo sapiens with 8 samples.

Results

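Accessible chromatin was examined around 8 genes of osmolyte transport and tonicity control, namely SLC5A3, SLC6A6, SLC6A12, SLC38A2, AKR1B1, NFAT5, SGK1 and AQP1. Every peak that touched the body of one of these genes, or lay within 50 kb of it, was taken, which gave 102 of the 129536 peaks in the deposited table. The peaks came from ATAC-seq, in which a transposase cuts open DNA in isolated nuclei, on HEK293 cells, a human embryonic kidney line. All 8 libraries carried the eGFP-YAP genotype, a fluorescent fusion of the transcriptional coactivator YAP, and whether this line is 1 clone is not given in the sources used here. There were 4 vehicle libraries, and 4 from cells exposed to 0.2 M sorbitol for 1 h. The vehicle libraries are labelled as a 0 h control, so the passage of time cannot be told apart from sorbitol. The series description states that cells were deprived of serum before the exposure. Sorbitol raises the osmolarity of the medium and draws water from cells, and the comparison addresses which open regions differ after this stress.

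Cells in hypertonic medium first shrink and take up salts, and later replace these with organic osmolytes such as myo-inositol, betaine, taurine, sorbitol and neutral amino acids. The transcription factor NFAT5, also called TonEBP, binds tonicity elements and raises transcription of many transporters and enzymes that supply these solutes. Kidney cells are the classical setting of this response, because the renal medulla is hypertonic.

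Libraries held 11522266 to 19831471 counts in peaks, and the sorbitol libraries (11522266 to 14355727) were all shallower than the vehicle libraries (14757015 to 19831471). The part of depth in the results was not tested. Correlations of log2 CPM, the usual depth-scaled counts, were 0.956 to 0.974 within groups and 0.925 to 0.939 between them. CPM here are counts scaled to the library total after a composition correction, the TMM factor (trimmed mean of M-values). The labels do not say whether replicates were separate cultures, so the p-values measure only the spread between these libraries, which may be technical. The table holds accessibility and no transcripts, and the identity of the cells was not checked against marker genes. In bulk libraries, a higher count cannot be told apart from openness in a larger share of cells.

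The promoter sequences are shown to give the DNA before the starts whose accessibility is reported, and no test related them to the changes. RefSeq promoter sequences on GRCh38.p14 were found for 5 of the 8 genes, as 8 windows, and 6 of them are given as the 250 bases before a RefSeq start, 5′ to 3′ on the strand of the gene. They belong to SLC5A3 (chr21:34073328-34073577, plus strand), SLC38A2 (chr12:46372774-46373023, minus), AKR1B1 (chr7:134459101-134459350, minus), the long form of SGK1 (chr6:134318113-134318362, minus), a shorter form of SGK1 (chr6:134174867-134175116, minus) and AQP1 (chr7:30911603-30911852, plus). Capitals mark TATAAA, the core of a TATA box, on either strand, so that TTTATA is the same motif read on the opposite strand.
SLC5A3: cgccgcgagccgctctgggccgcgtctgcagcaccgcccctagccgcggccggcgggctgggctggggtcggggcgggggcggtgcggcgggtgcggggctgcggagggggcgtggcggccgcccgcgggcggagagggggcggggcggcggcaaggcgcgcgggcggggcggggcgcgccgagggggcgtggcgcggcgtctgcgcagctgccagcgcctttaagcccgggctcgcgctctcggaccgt
SLC38A2: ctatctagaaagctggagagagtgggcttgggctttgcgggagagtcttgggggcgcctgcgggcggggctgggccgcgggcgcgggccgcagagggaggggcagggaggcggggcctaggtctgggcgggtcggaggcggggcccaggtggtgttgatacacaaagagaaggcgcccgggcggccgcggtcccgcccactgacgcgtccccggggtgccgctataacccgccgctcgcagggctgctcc
AKR1B1: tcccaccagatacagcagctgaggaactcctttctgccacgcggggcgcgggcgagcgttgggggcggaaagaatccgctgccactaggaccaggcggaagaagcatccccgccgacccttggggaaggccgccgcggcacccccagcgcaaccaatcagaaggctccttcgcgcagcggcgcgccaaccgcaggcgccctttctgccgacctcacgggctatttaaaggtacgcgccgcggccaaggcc
SGK1, long form: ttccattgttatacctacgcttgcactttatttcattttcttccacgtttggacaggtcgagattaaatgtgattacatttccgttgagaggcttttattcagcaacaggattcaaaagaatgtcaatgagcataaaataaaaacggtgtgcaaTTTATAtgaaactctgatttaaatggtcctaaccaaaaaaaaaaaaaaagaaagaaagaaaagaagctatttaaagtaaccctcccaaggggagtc
SGK1, shorter form: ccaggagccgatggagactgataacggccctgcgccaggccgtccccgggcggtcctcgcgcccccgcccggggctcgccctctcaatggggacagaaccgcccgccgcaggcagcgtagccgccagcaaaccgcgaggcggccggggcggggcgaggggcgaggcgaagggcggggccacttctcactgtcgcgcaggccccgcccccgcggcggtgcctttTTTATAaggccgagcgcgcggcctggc
AQP1: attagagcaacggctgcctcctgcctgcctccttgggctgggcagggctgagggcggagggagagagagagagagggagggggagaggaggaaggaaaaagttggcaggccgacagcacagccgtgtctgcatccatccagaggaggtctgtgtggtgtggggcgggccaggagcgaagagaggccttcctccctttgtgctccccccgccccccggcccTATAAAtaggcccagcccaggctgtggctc

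These windows differed in base composition. GC content was 84.8% before SLC5A3, 73.6% before SLC38A2, 68.0% before AKR1B1, 76.0% before the shorter form of SGK1 and 65.2% before AQP1, but 33.6% before the long form of SGK1. The windows not shown held 50.8% (another AKR1B1 start) and 41.6% (another SGK1 start). The median over all 35116 windows of this length was 58.0%. TATAAA was present in all 3 SGK1 windows and in the AQP1 window, and in 10.7% of all windows. The match lay 96 bases before the long-form SGK1 start and 27 before the shorter-form start, both on the opposite strand. It lay 15 bases before the SGK1 start not shown and 30 before the AQP1 start. Whether any of these acts as a TATA box was not tested. Of the letters TGGAAA, the core of the NFAT5 element, none of the 8 windows held a match on either strand, against 18.0% of all windows. The longer tonicity element (TonE) consensus, which contains that core, matched in 0 of 8 windows and in 4.16% of all windows. These 8 windows are few, those of AKR1B1 overlap each other, and SLC6A6, SLC6A12 and NFAT5 have none. Sequence farther from the starts was not searched. The windows of SLC5A3, SLC38A2, AKR1B1 and both SGK1 forms shown overlapped a peak, whereas the AQP1 window overlapped none.

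Across the 102 peaks, accessibility moved in both directions after sorbitol, and the genes differed from each other. A quasi-likelihood test in edgeR, with p-values adjusted by Benjamini-Hochberg over 129487 tested peaks, was applied, and 22 of 102 peaks (21.6%) rose and 13 (12.7%) fell at an adjusted p under 0.05. Over all tested peaks the shares were 16.0% higher and 13.1% lower. All 102 passed the filter on low counts. SGK1, a kinase gene, supplied 12 of the 22 peaks that rose, and none of its 24 peaks fell, with 13 higher and 0 lower at an unadjusted p under 0.05 and 10 higher and 0 lower by DESeq2. NFAT5 had 3 of 10 peaks lower and 0 higher, with 0 higher also at an unadjusted p under 0.05 and by DESeq2. SLC38A2 likewise had 3 lower, of 11 peaks, but 4 higher. The median log2 fold change was 0.06 over the 102 peaks and 0.01 over all peaks.

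**Figure D1:**
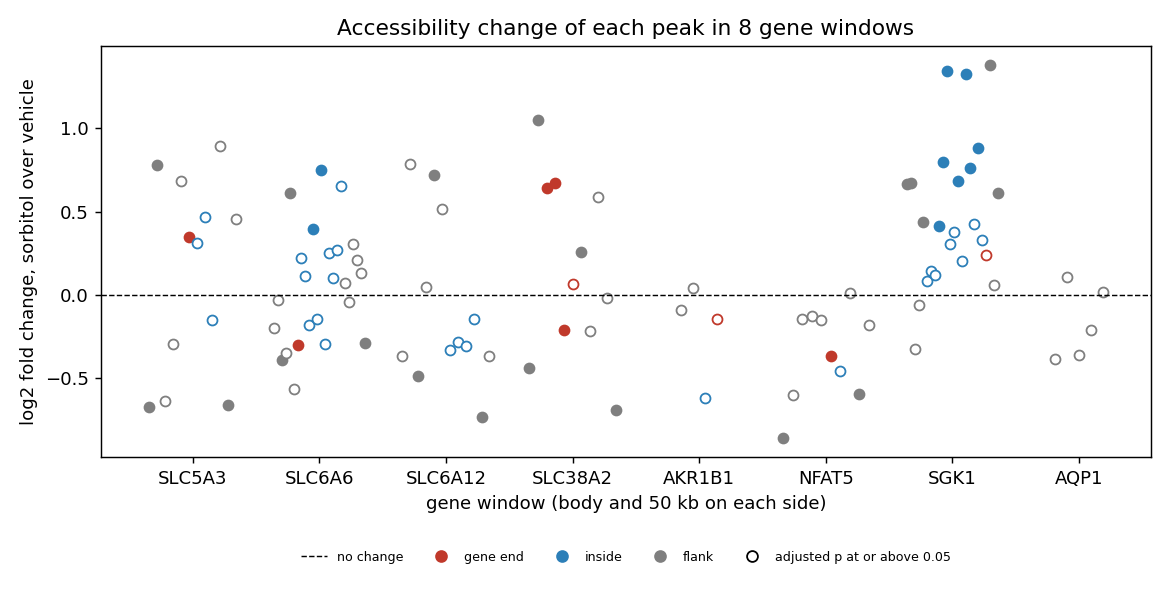
Log2 fold change (sorbitol over vehicle) of each of the 102 peaks, grouped by gene and coloured by place relative to the gene; filled points have an adjusted p under 0.05. SGK1 has 12 filled points above zero and none below, and NFAT5 has 3 below and none above.

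Few changes reached 2-fold. At least 2-fold increases that passed the test numbered 4 of 102, against 5.27% of all peaks, and 3 of these 4 lay in the SGK1 window. No peak fell 2-fold, against 0.881% of all peaks that did and passed the test, and the lowest log2 fold change was -0.86. In 21 peaks all sorbitol libraries lay above all vehicle libraries (13.7% of all peaks), and in 15 all lay below (12.6%).

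The counts of higher and lower peaks depended on the scaling. There were 22 higher and 13 lower with TMM factors from all peaks, and 30 and 8 with library totals alone. TMM factors from gene-end peaks gave 35 and 5, and those from peaks on unplaced contigs gave 6 and 4. With the contig factors calls were lost in both directions. Of the calls left, 60.0% were higher, against 62.9% with TMM factors from all peaks. Over all 129487 tested peaks the counts moved with the scaling too. They were 20701 higher and 17016 lower with TMM factors from all peaks, and 26162 and 12650 with library totals. Gene-end factors gave 34038 and 8670, and contig factors gave 9119 and 5233. With the contig factors 10 of the 35 calls held, none of them at an end of the 8 genes, and they comprised 5 peaks in the SGK1 window, 2 flank peaks of SLC5A3, and 1 flank peak each of SLC6A12, SLC38A2 and NFAT5. The gene-end factors moved the median of all peaks from 0.01 to 0.19. Gene-end peaks had a median of -0.17 with TMM factors from all peaks. Factors taken from them shift these peaks upward by construction, so lower calls lost there are no independent check. Without vehicle replicate 3, or without sorbitol replicate 2, the count of lower peaks was 8.

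Each peak was also set beside its peers, defined as all tested peaks of the same place (within 1 kb of any RefSeq gene's end, inside a gene, or intergenic) and the same decile of mean count. The 102 peaks would have had 15.5% higher and 15.4% lower at their peers' rates, and 58 of them lay above the median of their peers. These figures are a description without a test.

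**Figure D2:**
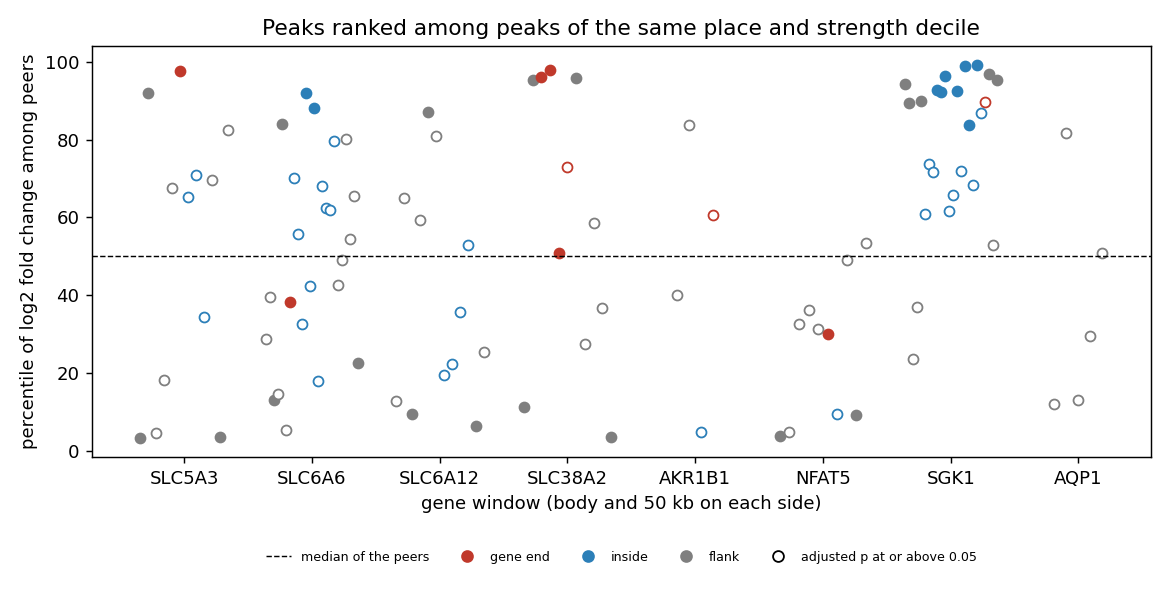
Percentile of the log2 fold change of each peak among its peers, by gene; the dashed line is the peers' median and filled points have an adjusted p under 0.05. In the SGK1 window 22 of 24 peaks lie above the line, and in the NFAT5 window 1 of 10 does.

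By place, 9 of the 102 peaks lay within 1 kb of an end of their own gene, 35 lay inside the body and 58 lay in the flanks. Of the 9 gene-end peaks, 3 rose, 3 fell and 3 did not pass. Among all gene-end peaks, 8.74% were higher and 32.8% were lower. Of the 35 peaks inside, 9 rose and 0 fell, against 18.9% and 8.58% of all peaks inside genes. SGK1 held 7 of these 9. The 35 include peaks near ends of SLC6A12-AS1 and KRT8P42, which the class of all peaks inside genes leaves out. Peer rates, which count such peaks as gene-end peaks, were 16.3% higher and 13.3% lower. At an unadjusted p under 0.05 the inside peaks gave 10 higher and 3 lower, and DESeq2 gave 7 and 0. The flanks held 10 peaks that rose and 10 that fell, against peer rates of 16.4% higher and 12.8% lower. Of the flank peaks, 21 lay between genes (5 higher, 2 lower), 27 inside another gene (3 and 5) and 10 at an end of another gene (2 and 3). Among all intergenic peaks, 16.0% were higher and 8.05% lower.

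NFAT5 was less accessible at its low-coordinate end and over a neighbouring gene, and no peak of its window rose. NFAT5 lies at chr16:69565966-69704654, and the peak at chr16:69565383-69567339 also touches MIR1538. It held 33.0, 36.0, 33.1 and 35.5 CPM in vehicle replicates 1 to 4, and 27.6, 24.0, 27.5 and 27.8 in sorbitol replicates 1 to 4. All sorbitol libraries were below all vehicle libraries. The log2 fold change was -0.36 (SE 0.09, adjusted p 0.00108), at the 29.9th percentile of 9721 peers. Of those peers, 49.7% fell. With gene-end factors the value was -0.19 (adjusted p 0.0604).

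The single peak inside the NFAT5 body, at chr16:69613312-69613639, was weak and did not pass (log2 fold change -0.46, SE 0.28, adjusted p 0.233). Of the 8 flank peaks, 2 fell. The one with the smaller p was at chr16:69726223-69727065, over an end of NQO1, a quinone reductase gene, 21.6 kb from NFAT5. It held 35.1, 37.6, 35.3 and 31.5 CPM in vehicle libraries and 23.4, 23.1, 21.8 and 24.2 in sorbitol libraries, and the groups did not overlap. Its log2 fold change was -0.59 (SE 0.09, adjusted p 7.47e-07), at the 9.27th percentile of its peers. The other lower flank peak, at chr16:69522738-69523088 over an end of LOC105371325, changed by -0.86 (SE 0.29, adjusted p 0.0203). That call was lost without vehicle replicate 2, vehicle replicate 3 or sorbitol replicate 2 (adjusted p up to 0.108). In all, 9 of the 10 peaks had a negative log2 fold change and the median was -0.27. Peer rates for a window of this makeup were 14.0% higher and 18.4% lower. With TMM factors from gene-end peaks, or from contig peaks, only 1 of the 10 was called lower.

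SGK1 encodes the serum- and glucocorticoid-regulated kinase, which acts on ion channels and transporters. It gained accessibility at peaks spread over its long body and both flanks, while the peaks over its starts did not pass the test. The gene spans chr6:134169256-134318112 and has several RefSeq starts. The peak over the start of the long form, chr6:134317387-134318273, held 10.3, 8.86, 10.9 and 10.1 CPM in vehicle libraries and 11.8, 13.4, 12.5 and 9.96 in sorbitol libraries. Sorbitol replicate 4 lay within the vehicle range. The log2 fold change was 0.24 (SE 0.12, adjusted p 0.127), at the 89.8th percentile of 4242 peers. This peak passed the threshold with library totals, gene-end factors, a loess offset and a minimum mean of 50 counts.

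The strongest SGK1 peak lay over the start of the shorter form whose GC-rich window is shown above, at chr6:134174554-134175764. It held 59.0, 60.8, 59.5 and 58.2 CPM in vehicle libraries and 65.6, 67.2, 60.7 and 68.7 in sorbitol libraries, and the groups overlapped only through sorbitol replicate 3 (log2 fold change 0.14, SE 0.08, adjusted p 0.160). The next peak, at chr6:134178265-134178842, gave 0.12 (SE 0.08, adjusted p 0.306). These 2 peaks were named after their values were seen.

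Inside the SGK1 body, 7 of 15 peaks rose, and all 15 had a positive log2 fold change. The body here is the extent of the long form, and all 7 that rose lie upstream of the shorter-form start shown above. The smallest p belonged to chr6:134295927-134296493, 21.9 kb downstream of the long-form start and near an end of the keratin pseudogene KRT8P42. It held 4.97, 4.46, 4.64 and 2.60 CPM in vehicle libraries and 8.33, 7.54, 6.95 and 8.04 in sorbitol libraries. The groups were well apart, and vehicle replicate 4 was the lowest of all. The log2 fold change was 0.88 (SE 0.16, adjusted p 3.64e-05), at the 99.3th percentile of 2300 gene-end peers.

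The other peaks that rose inside SGK1, named after their values were seen, were mostly weak. The peak at chr6:134278114-134278418 held 1.43, 0.904, 0.671 and 2.26 CPM in vehicle libraries and 2.75, 2.72, 4.18 and 3.23 in sorbitol libraries (log2 fold change 1.33, SE 0.27, adjusted p 0.000179). The one at chr6:134207520-134207891 held 1.22, 0.723, 0.774 and 0.753 CPM against 1.33, 2.10, 3.01 and 2.34 (log2 fold change 1.34, SE 0.31, adjusted p 0.000664). In both, the groups did not overlap. A stronger peak at chr6:134182438-134182983, 135.4 kb into the gene, held 17.4, 16.5, 18.2 and 14.7 CPM against 20.6, 21.6, 23.4 and 23.6 (log2 fold change 0.41, SE 0.10, adjusted p 0.000989). The other 3 that rose changed by 0.69 to 0.80, and the call of 1 of them, at chr6:134283579-134283816, was lost in 5 of the 8 fits that left out 1 library, all but those without vehicle replicate 2 or sorbitol replicate 2 or 3.

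The SGK1 flanks held 8 peaks, of which 5 rose and 0 fell, with the same counts at an unadjusted p under 0.05 and 4 and 0 by DESeq2. Upstream, the peak at chr6:134342143-134342423, 24.0 kb before the long-form start, held 0.748, 0.663, 0.464 and 1.51 CPM in vehicle libraries and 2.08, 2.41, 2.09 and 2.06 in sorbitol libraries. Its log2 fold change was 1.38 (SE 0.31, adjusted p 0.000645), and all sorbitol libraries were above all vehicle libraries. A second upstream peak, at chr6:134363227-134364097, rose by 0.61 on the log2 scale (SE 0.14, adjusted p 0.000648). The 3 downstream peaks that rose changed by 0.44 to 0.67, and the call of 1 of them, at chr6:134132514-134132917, was lost in 5 of the 8 fits that left out 1 library, all but those without vehicle replicate 4 or sorbitol replicate 2 or 4. The median over the 24 peaks was 0.42, against peer rates of 16.0% higher and 13.3% lower for a window of this makeup. With TMM factors from contig peaks the count that rose was 5 in place of 12. All 15 inside peaks kept a positive sign under every scaling, and 14 of 15 did so without vehicle replicate 3, without sorbitol replicate 4, or without both libraries numbered 4.

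**Figure D3:**
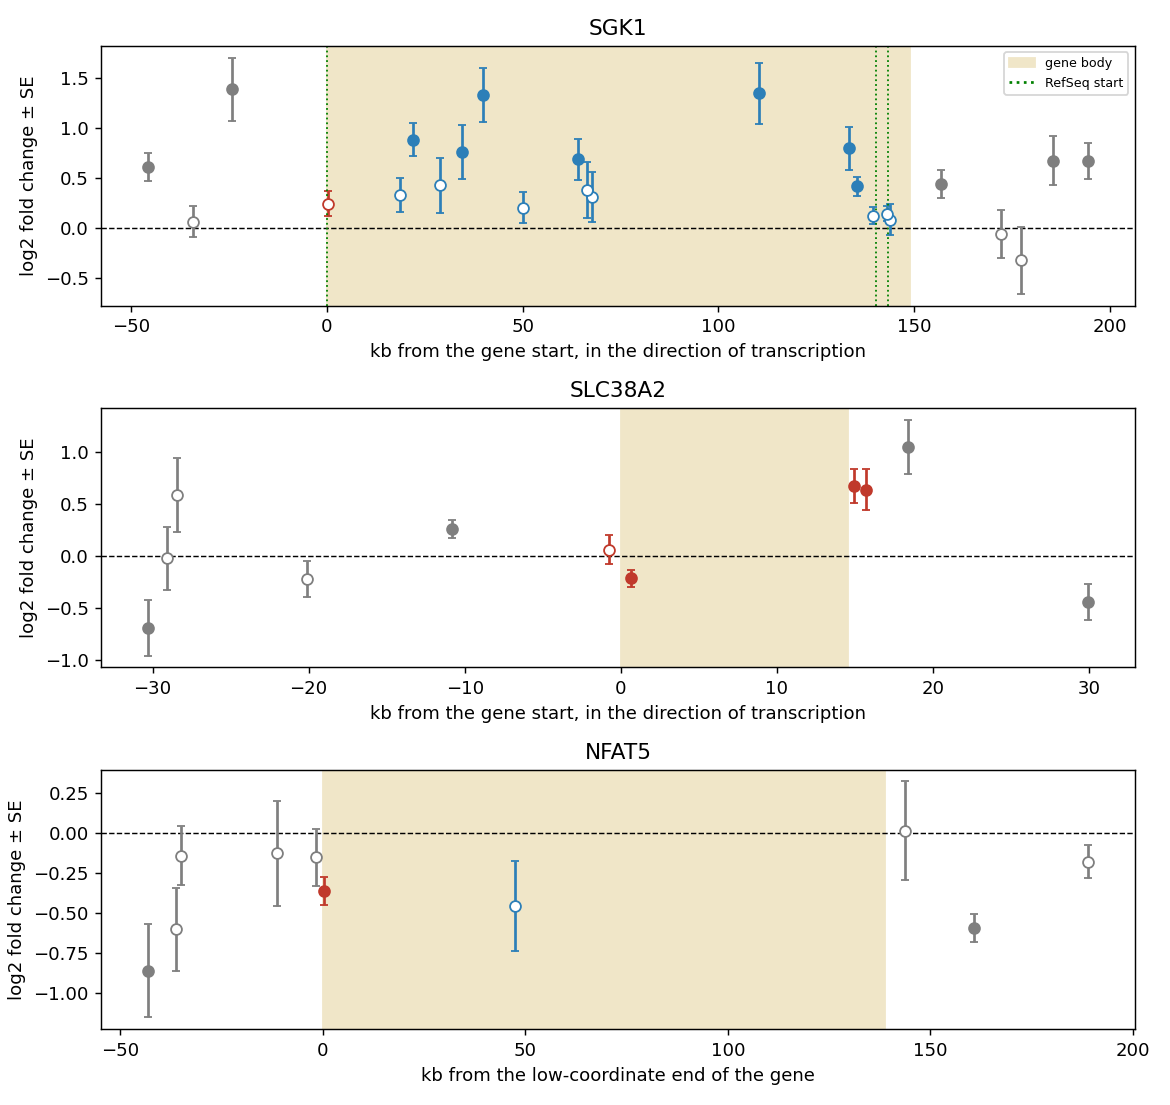
Log2 fold change with standard error of each peak against its distance in kb, for SGK1 and SLC38A2 from the gene start in the direction of transcription and for NFAT5 from its low-coordinate end; shading marks the gene body and filled points have an adjusted p under 0.05. In SGK1 the 15 peaks inside the body all lie above zero, and in SLC38A2 the peaks at the far end lie above zero while the start peak lies below.

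SLC5A3 encodes the sodium-coupled myo-inositol transporter SMIT1. Its start rose, against the direction of most called gene-end peaks. The gene spans chr21:34073578-34106260, and its start peak, chr21:34072963-34074775, also covers the start of MRPS6, a mitochondrial ribosomal protein gene with the same RefSeq start, so the peak cannot be assigned to either gene. It held 27.5, 31.3, 34.4 and 38.0 CPM in vehicle libraries and 41.7, 41.9, 41.1 and 42.1 in sorbitol libraries. The sorbitol libraries were close together and all above the widely spread vehicle libraries. The log2 fold change was 0.35 (SE 0.09, adjusted p 0.00202), at the 97.8th percentile of 9721 peers.

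The 3 peaks inside SLC5A3 did not pass, by edgeR at either an adjusted or an unadjusted p under 0.05, or by DESeq2. Of its 8 flank peaks, 1 rose and 2 fell. The smallest p was at chr21:34128852-34130005, inside MRPS6 and 22.6 kb beyond the SLC5A3 body. It held 30.7, 32.7, 30.9 and 30.2 CPM in vehicle libraries and 22.2, 18.1, 18.7 and 19.7 in sorbitol libraries, with no overlap (log2 fold change -0.66, SE 0.09, adjusted p 1.32e-07). This was a decrease at the 3.4th percentile of its peers, in the same window as the raised start. The flank peak that rose, at chr21:34035577-34036044, held 2.79, 2.35, 1.65 and 1.98 CPM against 4.25, 3.73, 4.35 and 2.75, and the groups overlapped (0.78, SE 0.22, adjusted p 0.00508).

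SLC6A6 encodes the taurine transporter. Its gene-end peak fell while the inside peak with the smallest p rose. SLC6A6 spans chr3:14402576-14489349, and the peak at its low-coordinate end, chr3:14402062-14403885, also touches LOC105376959. It held 49.9, 56.4, 47.5 and 46.9 CPM in vehicle libraries and 38.3, 40.9, 42.8 and 41.2 in sorbitol libraries, with every sorbitol library lower. The log2 fold change was -0.30 (SE 0.08, adjusted p 0.00443), at the 38.2th percentile of 9721 peers. The call was lost with gene-end factors (-0.12, adjusted p 0.193) and with a loess offset (-0.11, adjusted p 0.238).

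Inside SLC6A6, 2 of 11 peaks rose (18.2%) and 0 fell, with 3 and 0 at an unadjusted p under 0.05 and 1 and 0 by DESeq2. Peer rates for these 11 peaks were 16.6% higher and 13.3% lower, so the share that rose was near that of the peers. The peak at chr3:14439073-14440400 held 28.4, 24.9, 29.3 and 31.7 CPM in vehicle libraries and 31.0, 38.6, 40.6 and 39.9 in sorbitol libraries. Only sorbitol replicate 1 fell within the vehicle range (log2 fold change 0.39, SE 0.09, adjusted p 0.000761). The call of the other inside peak that rose, at chr3:14458163-14458370, was lost in 4 of the 8 fits that left out 1 library. The flanks gave 1 peak that rose and 2 that fell among 12, and 0 and 2 by DESeq2, against peer rates of 16.2% higher and 10.5% lower. The peak that rose, at chr3:14375216-14375450, lost its call in 7 of the 8 fits that left out 1 library. Only the fit without vehicle replicate 2 kept it. The lower call at chr3:14537242-14538444 was lost in 4 of those 8 fits. The lower one named by the rule, at chr3:14371693-14372266, held 6.94, 7.47, 7.94 and 7.94 CPM against 6.08, 5.05, 6.61 and 5.43 (log2 fold change -0.39, SE 0.14, adjusted p 0.0342). The call was lost without vehicle replicate 2, 3 or 4 or sorbitol replicate 2 or 4 (adjusted p up to 0.109), with library totals (0.0980) and with a loess offset (0.0525).

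SLC6A12 encodes the betaine and GABA transporter BGT1. It had no peak within 1 kb of its ends (chr12:183848-214157), and none of its 4 inside peaks passed by edgeR or DESeq2, although all 4 had a negative sign and 2 were lower at an unadjusted p under 0.05. Of its 8 flank peaks, 1 rose and 2 fell, against peer rates of 19.0% higher and 12.9% lower. The smallest p was at chr12:219801-220320, over an end of the neighbouring GABA transporter gene SLC6A13. This peak held 11.2, 10.8, 10.4 and 10.4 CPM in vehicle libraries and 7.41, 6.30, 6.95 and 5.15 in sorbitol libraries. The groups were apart, and the log2 fold change was -0.73 (SE 0.13, adjusted p 2.95e-05), at the 6.4th percentile of its peers. The other lower flank peak, at chr12:153047-153603, changed by -0.49 (SE 0.13, adjusted p 0.00259), with all sorbitol libraries below all vehicle libraries. The 1 flank peak that rose, at chr12:163168-163375, held 2.11, 2.05, 0.825 and 1.71 CPM against 3.50, 3.81, 2.43 and 1.24. Its groups overlapped, its adjusted p was 0.0463 (log2 fold change 0.72, SE 0.28), and the call was lost without vehicle replicate 3 and without sorbitol replicate 1, 2 or 3 (adjusted p 0.0623 to 0.243).

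SLC38A2 encodes SNAT2, which imports neutral amino acids with sodium. In its window 4 of 11 peaks rose and 3 fell, against peer rates of 13.7% higher and 19.5% lower. The 2 ends of this minus-strand gene (chr12:46358188-46372773) differed in sign. At the far end, the peak at chr12:46357428-46358228 held 4.22, 3.43, 5.62 and 4.10 CPM in vehicle libraries and 8.66, 6.37, 7.11 and 5.91 in sorbitol libraries, with no overlap (log2 fold change 0.67, SE 0.16, adjusted p 0.00139). It lay at the 98.0th percentile of 2300 peers. The adjoining peak at chr12:46356776-46357325 held 4.15, 3.31, 3.71 and 1.51 CPM against 4.75, 4.90, 4.52 and 5.70 (0.64, SE 0.20, adjusted p 0.0117). Its call was lost without vehicle replicate 4 or without sorbitol replicate 4, and the log2 fold change was 0.33 (adjusted p 0.229) without both.

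Another peak, 3.72 kb beyond the far end of SLC38A2 at chr12:46354273-46354473, held 0.952, 1.45, 1.24 and 1.16 CPM in vehicle libraries and 2.67, 2.25, 2.51 and 2.61 in sorbitol libraries. It rose by 1.05 on the log2 scale (SE 0.26, adjusted p 0.00173), the largest change in this window. These 3 peaks held fewer counts than the start peak. Farther beyond the far end, the peak at chr12:46342543-46343171 went the other way (log2 fold change -0.44, SE 0.17, adjusted p 0.0478), a call lost in 6 of the 8 fits that left out 1 library, all but those without vehicle replicate 2 or sorbitol replicate 4. The start peak, at chr12:46371131-46373095, also touches SLC38A2-AS1 and held 55.3, 54.7, 54.7 and 53.5 CPM in vehicle libraries and 43.1, 47.2, 44.5 and 53.6 in sorbitol libraries. Sorbitol replicate 4 was level with the vehicle libraries. The log2 fold change was -0.21 (SE 0.08, adjusted p 0.0436), at the 50.9th percentile of 9721 peers. The call was lost in 6 of the 8 fits that left out 1 library, all but those without vehicle replicate 4 or sorbitol replicate 4, while the log2 fold change stayed between -0.29 and -0.18. With gene-end factors the value was -0.04 (adjusted p 0.730). An upstream gene-end peak at chr12:46373352-46373721 gave 0.06 (SE 0.14, adjusted p 0.780).

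Of the other SLC38A2 flank peaks, the lower one with the smallest p, at chr12:46402808-46403271, held 1.50, 2.53, 2.79 and 2.33 CPM in vehicle libraries and 1.50, 1.55, 1.59 and 1.10 in sorbitol libraries (log2 fold change -0.69, SE 0.27, adjusted p 0.0443). Vehicle replicate 1 lay among the sorbitol libraries. The call was lost in 7 of the 8 fits that left out 1 library, all but that without vehicle replicate 1 (adjusted p up to 0.159). The strongest flank peak, over an end of SLC38A4-AS1 at chr12:46382947-46384205, was named after its values were seen. It held 28.7, 28.0, 29.7 and 28.6 CPM against 34.3, 37.2, 31.3 and 34.7 and rose by 0.26 on the log2 scale (SE 0.09, adjusted p 0.0171), a call lost without sorbitol replicate 2 (adjusted p 0.0798).

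AKR1B1 encodes aldose reductase, which makes sorbitol from glucose inside the cell. None of its 4 peaks (gene at chr7:134442350-134459239) passed the edgeR or the DESeq2 test, with 1 lower at an unadjusted p under 0.05. Peer rates for this window were 10.9% higher and 28.6% lower. The start peak, at chr7:134458318-134459520, held 66.2, 64.6, 78.5 and 72.1 CPM in vehicle libraries and 55.3, 64.1, 61.8 and 73.6 in sorbitol libraries. The groups overlapped, through sorbitol replicate 4 (log2 fold change -0.14, SE 0.08, adjusted p 0.201). Without that library the value was -0.23 (adjusted p 0.0257), and the sign turned to 0.03 with gene-end factors and 0.06 with a loess offset. The single inside peak, at chr7:134447466-134447817, gave -0.62 (SE 0.26, adjusted p 0.0651).

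AQP1 encodes a water channel of the proximal tubule and other epithelia. The gene (chr7:30911853-30925516) had no peak at its ends or inside, and the TATA-containing window shown above overlapped none. None of the 5 flank peaks passed by edgeR, at an adjusted or an unadjusted p under 0.05, or by DESeq2. Peer rates for this window were 14.2% higher and 16.3% lower. The strongest, at chr7:30938463-30939169, held 13.3, 10.7, 13.1 and 12.6 CPM in vehicle libraries and 12.2, 10.3, 10.2 and 10.2 in sorbitol libraries (log2 fold change -0.21, SE 0.12, adjusted p 0.181), and the groups overlapped.

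**Figure D4:**
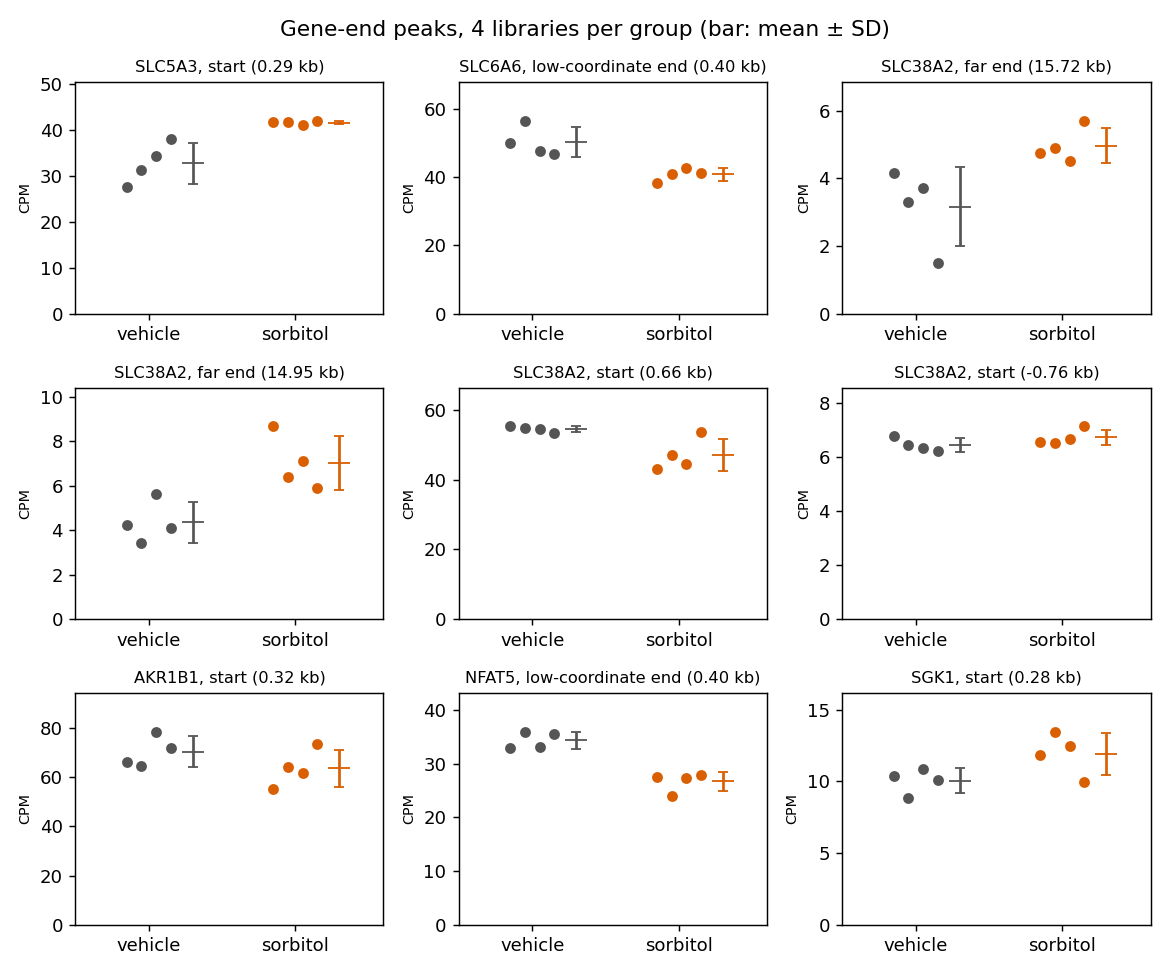
CPM of the 9 gene-end peaks in each of the 8 libraries (points), with mean and SD (bars), one panel per peak; the number in each title is the distance of the peak's centre in kb from the gene's start or low-coordinate end. The SLC5A3 start and both far-end peaks of SLC38A2 are higher in every sorbitol library, and the SLC6A6 and NFAT5 ends are lower in every one.

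Levels at gene ends were compared per kb of peak. The number of copies of each locus in these cells was not examined. Peak widths differed, at 1202 bp for the AKR1B1 start and 1964 bp for the SLC38A2 start, so the order also depends on how peaks were bounded. In vehicle libraries the AKR1B1 start held the highest value of the gene-end peaks, 58.5 ± 5.25 CPM per kb (SD, n = 4). The start of SLC38A2 (27.8 ± 0.384) and the low-coordinate end of SLC6A6 (27.5 ± 2.40) did not differ beyond their spread. SLC5A3 (18.1 ± 2.47) and NFAT5 (17.6 ± 0.798) did not either, and the long-form start of SGK1 held 11.3 ± 0.969. The other gene-end peaks of SLC38A2 held 17.5 ± 0.673 upstream of its start, and 5.43 ± 1.15 and 5.78 ± 2.12 at its far end. The shorter-form start peak of SGK1, inside the body, held 49.1 ± 0.908 CPM per kb.

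Gene-end peaks of 27 other genes of the tonicity pathway were examined, in 3 groups of kinases and regulators of NFAT5, other osmolyte transport and synthesis, and water or urea channels. Of the 27 genes, 22 had a gene-end peak, giving 30 peaks, of which 0 rose, 16 fell and 14 did not pass. At an unadjusted p under 0.05, 0 were higher and 18 lower, and by DESeq2 0 and 14. Among all gene-end peaks 8.74% were higher and 32.8% lower, and the peers of these 30 peaks averaged 7.19% and 40.8%. The median log2 fold change was -0.33, and 18 of 30 lay below their peer median. These shares are a description without a test.

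Among 11 regulators of NFAT5 there were 15 peaks, of which 8 fell (median -0.34). The smallest p was at MAP3K3, a kinase gene upstream of p38 in osmotic signalling, with 83.2 ± 5.08 CPM (SD, n = 4) in vehicle and 60.9 ± 2.08 in sorbitol libraries (log2 fold change -0.45, adjusted p 9.66e-06). Of 13 peaks of osmolyte transport and synthesis genes, 7 fell (median -0.35). PNPLA6, a phospholipase gene that takes part in making glycerophosphocholine, changed from 26.0 ± 1.86 to 14.4 ± 1.92 CPM (-0.85, adjusted p 3.56e-09). ISYNA1, the enzyme of myo-inositol synthesis, held a peak with 0.05 (adjusted p 0.760), the smallest p of the positive values in that group. Its other gene-end peak, at chr19:18438202-18439142, fell, from 14.3 ± 0.703 to 9.79 ± 1.32 CPM (-0.55, adjusted p 0.000295), with all sorbitol libraries below all vehicle libraries. The 2 water and urea peaks comprised AQP3, a water and glycerol channel, at -0.31 (adjusted p 0.0200), and SLC14A1, a urea transporter, which did not pass. The AQP3 call was lost with library totals (adjusted p 0.0846), without vehicle replicate 3 (0.0824) and without sorbitol replicate 2 (0.120). No gene-end peak was found for SLC5A11, SLC38A4, AQP2, AQP5 or SLC14A2. The SLC6A13 peak of this list is also a flank peak of SLC6A12.

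**Figure D5:**
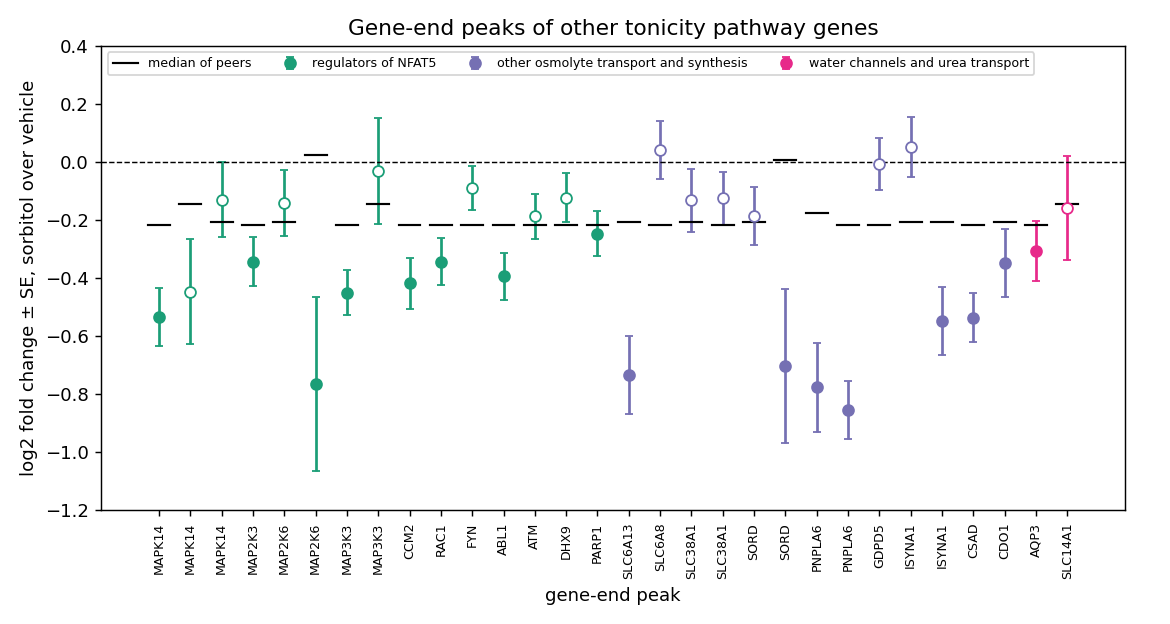
Log2 fold change with standard error of the 30 gene-end peaks of the pathway list, coloured by group; horizontal ticks give the median of each peak's peers and filled points have an adjusted p under 0.05. The 16 filled points all lie below zero.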

How the data were processed

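The authors deposited raw counts for shared peaks in 8 libraries, and the file's columns were matched to samples by group and replicate number. Per the submitters' processing notes, Trim Galore 0.6.10, BWA 0.7.17, SAMtools 1.22 and MACS2 2.2.9.1 were used on hg38. How peaks were merged, and whether reads or fragments were counted, is not given in the sources used here. Peak positions are as in the deposited table, whose base (0 or 1) is not stated. Gene positions are from RefSeq on GRCh38.p14, without strand, and strand is from the promoter sequences. SLC6A6, SLC6A12 and NFAT5 have no such entry.

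The edgeR filter filterByExpr (at least 10 counts, total at least 15) kept 129487 of 129536 peaks, which were scaled by TMM and tested with edgeR 4.0.16 in R 4.3.3 (quasi-likelihood, 4 against 4). DESeq2 1.42.0 was an alternative. The method was tested on simulated data. Named peaks were every gene-end peak of the 8 genes, the inside or flank peak with the smallest p in each direction per gene, the strongest peak of a gene without calls, and the smallest p in each direction per pathway group. The genes and lists were chosen with earlier results of these data known. Alternatives with contig peaks, without both libraries numbered 4, and the counts by window for SGK1 and NFAT5 were chosen after seeing the data. Counting precision is limited in peaks of low mean count, and PCR duplicates are not independent molecules.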

Additional observations from a re-analysis of the deposited data

Results flagged for a closer look

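Single libraries stood apart from the other 3 of their group in 3 of 48 groups examined over the named peaks, where chance gives about 2.4. At the NFAT5 low-coordinate end, sorbitol replicate 2 was lowest at 24.0 CPM, and the other sorbitol libraries held 27.5 to 27.8. At the strongest AQP1 flank peak, sorbitol replicate 1 was highest at 12.2 CPM, and the others held 10.2 to 10.3. At the PNPLA6 peak named in the pathway list, sorbitol replicate 1 was highest at 17.2 CPM, and the others held 13.2 to 13.7.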

How the results depend on the processing

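The 22 higher and 13 lower peaks became 35 and 5 with TMM factors from gene-end peaks, 6 and 4 with contig factors, 13 and 7 with a minimum mean of 50 counts, 14 and 7 at an adjusted p under 0.01, and 14 and 4 with 10 kb flanks. With library totals, 8 were lower. The counts over all tested peaks moved under the same scalings, as given above. Leaving out each library gave 17 to 23 higher and 8 to 12 lower. Gene-end peaks higher numbered 0 with contig factors and 2 to 3 over single libraries left out. Gene-end peaks lower numbered 0 with gene-end factors, 0 with contig factors, 1 with a loess offset and 2 to 4 over single libraries left out. The gene-end factors shift gene-end peaks upward by construction, and the pathway peaks are gene-end peaks too. Pathway peaks lower numbered 9 with gene-end factors, 3 with contig factors and 13 to 17 over single libraries left out, and pathway peaks higher stayed at 0 there. SGK1 peaks higher numbered 5 with contig factors and 10 to 12 over single libraries left out. NFAT5 peaks lower numbered 1 with gene-end factors, 1 with contig factors and 2 to 4 over single libraries left out. Signs turned at the AKR1B1 start (0.0297 with gene-end factors, 0.0587 with loess) and at ISYNA1 (-0.00539 with contig factors, -0.00467 to 0.130 over single libraries left out, the lowest without vehicle replicate 4, -0.0182 without both libraries numbered 4). The cause was not tested, except that fewer peaks are tested or reached by the stricter settings. No call took the opposite direction in any refit, and 22 of the 35 calls held in all 8 fits that left out a library.

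No pairing by replicate number was visible in the counts: deviations of same-numbered libraries correlated at 5.59e-05, 0.00768, -0.0338 and -0.148. These values do not show whether same-numbered libraries were handled together. With the replicate block, 20 of the 102 peaks were higher and 10 lower, all among the 35. The calls lost under the block included the SLC38A2 start (adjusted p 0.0654) and the SLC6A12 flank peak that rose (adjusted p 0.0561).

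Peaks of low count, at 12.6 counts on average for the weakest of the 102, limit what was detectable, and a peak that did not pass is not shown to be unchanged.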
